A study of Mus musculus with 12 samples.

Results

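The 35 genes described here encode proteins that hold the sarcomere, the contractile unit of striated muscle, in register. They were taken by symbol from the 56941 genes of the deposited table, and each of the 35 had 1 row. They were grouped into 3 genes of giant proteins and their kin (Ttn, Neb and the obscurin-like Obsl1, whose longest transcript, at 5.68 kb, is itself not giant), 19 genes of the Z-disc and its periphery (Actn2, Actn3, Tcap, Ldb3, Myoz1, Myoz2, Myoz3, Myot, Des, Flnc, Xirp1, Xirp2, Pdlim3, Pdlim5, Synpo2, Synpo2l, Smpx, Csrp3, Nrap), 8 genes of the M-band and thick filament (Myom1, Myom2, Myom3, Trim54, Trim55, Mybpc1, Mybpc2, Mybph) and 5 genes of the thin filament (Lmod2, Lmod3, Tmod1, Tmod4, Klhl41). All 35 passed the filter on low counts.

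RNA came from C2C12, a mouse myoblast line that fuses into myotubes when growth medium is replaced. The optogenetic line, genotype ChR2::tdTomato and called ChR2 below, carries a light-gated channel and a red fluorescent protein, and the control line is labelled Wild-Type. Each line filled 6 wells, and both were treated alike: cells were placed on fibrin (8 mg of fibrinogen per mL, in a layer of 1 mm), grown for 2 days with fetal bovine serum and aminocaproic acid, an inhibitor of fibrin breakdown, and differentiated for 6 days with horse serum, IGF-1 and again aminocaproic acid in high-glucose medium. The labels give no promoter for the transgene, do not say whether the ChR2 line is 1 clone, name no light stimulus, and leave unsaid whether wells were separate cultures. The p-values below therefore rest on the spread from well to well, which may be technical.

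In a sarcomere, actin thin filaments are anchored at the Z-disc by alpha-actinin, and myosin thick filaments are crosslinked at the M-band by myomesins. Titin spans the distance from Z-disc to M-band and acts as a spring, while nebulin runs along the thin filament. Around these lie adaptors with PDZ, LIM or ankyrin domains, the filamin C and Xin proteins, the desmin filaments that tie neighbouring myofibrils together, and the tropomodulins and leiomodins at the pointed ends of actin filaments. Their genes are switched on as myoblasts differentiate, under the E-box binding MyoD family and MEF2 factors.

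Promoter sequences were searched for the letters these factors are known to bind, the E-box and the MEF2 site. The MCAT element and the CArG box, which are not sites of these factors, were searched as well. The search is a description of what the genes share. RefSeq entries (GRCm38.p6) existed for 25 of the 35 genes, and the 250 bases before each start were searched on both strands. A MEF2 site lay in 7 of the 25 (28.0%), against 3.42% of 27025 genes with such an entry. An E-box (CAGCTG or CACCTG) lay in 16 of 25 (64.0%) against 30.6%, an MCAT element (CATTCC) in 6 of 25 (24.0%) against 14.4%, and a CArG box in Ldb3 and Myom1 (8.0%) against 1.62%. A match is a string of letters and not a binding site. The following windows hold the 7 MEF2 matches, in capitals, each with up to 20 bases on either side, read 5′ to 3′ on the gene's strand:
Ttn, chr2:76982684-76982733, minus strand: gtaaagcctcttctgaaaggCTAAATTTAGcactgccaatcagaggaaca
Myoz2, chr3:123034991-123035040, minus strand: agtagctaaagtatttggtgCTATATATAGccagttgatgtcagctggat
Xirp2, chr2:67445908-67445957, plus strand: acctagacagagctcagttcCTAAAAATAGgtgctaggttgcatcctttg
Synpo2, chr3:123236356-123236399, minus strand: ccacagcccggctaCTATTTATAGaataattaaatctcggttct
Synpo2l, chr14:20668434-20668483, minus strand: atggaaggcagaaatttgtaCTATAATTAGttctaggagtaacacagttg
Myom3, chr4:135759660-135759709, plus strand: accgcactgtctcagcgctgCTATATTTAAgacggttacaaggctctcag
Klhl41, chr2:69670037-69670086, plus strand: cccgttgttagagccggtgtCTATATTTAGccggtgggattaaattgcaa
Of these genes, Ttn and Synpo2l were lower in the ChR2 line over all wells and Myoz2 only without wild-type wells 2 and 5, whereas Xirp2, Synpo2, Myom3 and Klhl41 passed in neither comparison, so the 7 did not share a call. Trim54, Pdlim3 and Mybph were called lower in both comparisons, hold no MEF2 match in this window, and hold both an E-box and an MCAT element. Their windows of 250 bases are printed because these 3 genes hold both elements and were also called in every fit that left out 1 library. Mybpc2 likewise holds both elements and no MEF2 match, but was called in neither comparison (edgeR adjusted p = 0.425 and 0.674). E-boxes and MCAT elements on either strand are in capitals, and in Mybph an E-box and an MCAT element abut:
Trim54, chr5:31116362-31116611, plus strand: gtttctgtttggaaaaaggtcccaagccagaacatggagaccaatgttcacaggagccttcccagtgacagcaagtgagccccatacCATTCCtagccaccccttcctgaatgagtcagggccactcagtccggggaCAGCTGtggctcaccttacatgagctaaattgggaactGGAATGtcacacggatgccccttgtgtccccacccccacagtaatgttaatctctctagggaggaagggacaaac
Pdlim3, chr8:45885237-45885486, plus strand: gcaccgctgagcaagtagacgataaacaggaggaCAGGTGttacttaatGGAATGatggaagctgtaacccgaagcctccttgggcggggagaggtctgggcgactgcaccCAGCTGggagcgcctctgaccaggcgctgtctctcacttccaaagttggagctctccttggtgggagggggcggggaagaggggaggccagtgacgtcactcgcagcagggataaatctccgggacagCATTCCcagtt
Mybph, chr1:134193198-134193447, plus strand: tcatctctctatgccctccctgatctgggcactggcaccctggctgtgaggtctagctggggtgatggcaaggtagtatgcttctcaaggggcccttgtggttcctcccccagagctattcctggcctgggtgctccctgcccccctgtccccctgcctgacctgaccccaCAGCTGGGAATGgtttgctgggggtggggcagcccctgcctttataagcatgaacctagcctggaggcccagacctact

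Each ChR2 library held between 7388761 and 12229458 estimated counts. The range was 10268067 to 13628569 in wild-type wells 1, 3, 4 and 6, with 1061068 in wild-type well 2 and 2809669 in well 5. This pair also stood apart in content. The Rn7s RNAs, which carry no poly(A) tail, took 25.9% and 8.63% of their counts and at most 0.0377% elsewhere. The protocol says that low-input samples were ribodepleted without naming them. Results are therefore given over 12 libraries and over the 10 libraries without this pair. A floor of 3 counts corresponds to at most 0.412 CPM (counts relative to the TMM-scaled size of the library) in the 10 libraries, to 3.93 in wild-type well 2 and to 1.07 in well 5. Such floors cover counting error only, since the reads carry no molecular identifiers.

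Over 12 libraries, 10 of the 35 genes were lower in the ChR2 line and 0 were higher. They are Ttn, Neb, Des, Flnc, Xirp1, Pdlim3, Synpo2l, Trim54, Trim55 and Mybph. A gene was called when edgeR's quasi-likelihood test gave a Benjamini-Hochberg adjusted p under 0.05 over all 13168 genes tested. Among those, 28.1% were called, 14.0% higher and 14.1% lower. At an unadjusted p under 0.05 in edgeR the number of higher members was also 0. By DESeq2 and limma voom it was 0 at an adjusted p under 0.05. Log2 fold changes, ChR2 over wild type, ran from -2.0 (Ttn) to 0.47 (Pdlim5) with a median of -0.24, and 25 of 35 were negative, where the median over all genes was -0.02 and 51.8% were negative.

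Without wild-type wells 2 and 5, 13 of the 35 genes were lower and again 0 were higher, against 35.2% of 13484 genes called, 18.9% higher and 16.3% lower. The median was -0.32 (all genes 0.00), the range -1.09 (Xirp1) to 0.20, and 27 were negative. Without wild-type well 6 as well, the median was -0.15 and 8 members were lower, and without wild-type well 1 instead it was -0.51 with 18 lower. Of the 10 genes above, 9 remained called. Des dropped out, and Myoz2, Nrap, Myom2 and Lmod2 came in. In bulk RNA, fewer myotubes and less of a transcript per myotube cannot be told apart.

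The calls lay in 3 of the 4 groups over 12 libraries and in all 4 over 10. Neb, called in both, was counted with the giant genes although its protein runs along the thin filament. Over 12 libraries 2 of 3 giant genes, 5 of 19 Z-disc genes, 3 of 8 M-band and thick filament genes and 0 of 5 thin filament genes were lower. Without wild-type wells 2 and 5 these counts were 2, 6, 4 and 1. Of all genes tested, 14.1% were lower over 12 libraries and 16.3% over 10. Group medians of the log2 fold change were -0.62, -0.24, -0.44 and 0.13 over 12 libraries and -0.70, -0.32, -0.49 and -0.19 over 10. The thin filament genes were thus the only group whose median changed sign with that pair of wells.

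**Figure D1:**
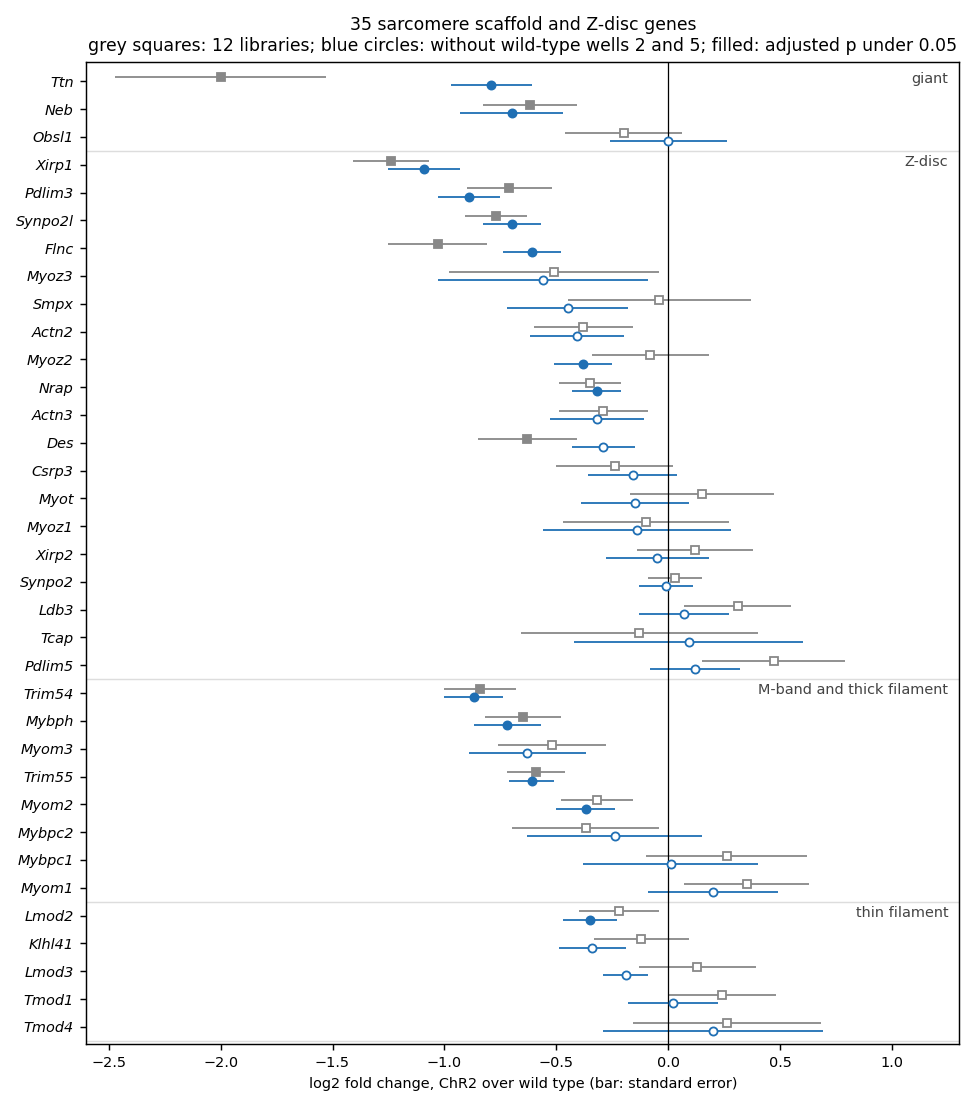
Log2 fold change (x axis, ChR2 over wild type, bar: standard error) of the 35 genes by structure, with grey squares for 12 libraries, blue circles for the 10 without wild-type wells 2 and 5, and filled symbols for adjusted p under 0.05. Every filled symbol lies left of 0, and Ttn moves from -2.0 to -0.79 between the fits.

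Among the giant proteins, titin (Ttn) showed the largest fold change of the set over 12 libraries, though not over 10. ChR2 wells held 1033 to 2002 CPM (median 1178), wild-type wells 1, 3, 4 and 6 held 1828, 2456, 2326 and 2535 CPM, and wild-type wells 2 and 5 held 11495 and 10798 CPM. Only ChR2 well 2, at 2002 CPM, reached into the range of the 4 ordinary wild-type wells. The log2 fold change was -2.0 ± 0.47 (SE, edgeR adjusted p = 0.00601) over 12 libraries and -0.79 ± 0.18 (adjusted p = 0.00386) over 10, so the pair moved the value by more than 1.5 times. Over 10 libraries Xirp1 (-1.09), Pdlim3 (-0.89) and Trim54 (-0.87) had larger fold changes than Ttn.

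Nebulin (Neb), the ruler-like protein of the thin filament, was the most abundant giant transcript per length, at 176 TPM (a unit scaled by transcript length) on average over the 10 wells. ChR2 wells ranged from 478 to 912 CPM (median 578), wild-type wells 1, 3, 4 and 6 held 662, 825, 1291 and 1327 CPM, and wells 2 and 5 held 771 and 906 CPM. ChR2 wells 2 and 6 overlapped the wild-type range. The difference was -0.62 ± 0.21 (SE, edgeR adjusted p = 0.0381) and -0.70 ± 0.23 (adjusted p = 0.0309) without the pair. Over 12 libraries Neb was no longer called after leaving out ChR2 well 1, 3, 4, 5 or 6 or wild-type well 4 or 6, 1 at a time (adjusted p up to 0.0858), and the 10-library call without wild-type well 4 or 6 (up to 0.087). Obsl1, whose protein links titin and myomesin at the M-band, was not called, with log2 fold changes of -0.20 ± 0.26 and 0.00 ± 0.26 (SE).

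At the Z-disc, Xirp1 had the smallest adjusted p of the 35 genes over 12 libraries. It encodes Xin, an actin-binding protein that also binds filamin C. ChR2 wells held 66.8 to 107 CPM (median 81.9), and wild-type wells 1 to 6 held 223, 203, 216, 142, 269 and 157 CPM. The highest ChR2 well lay below the lowest wild-type well. The log2 fold change was -1.24 ± 0.17 (SE, edgeR adjusted p = 0.000253) over 12 libraries. Over 10 libraries it was -1.09 ± 0.16 (adjusted p = 0.000387).

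Filamin C (Flnc), the muscle filamin that crosslinks actin at the Z-disc and the membrane, fell as well. ChR2 wells lay between 579 and 704 CPM (median 599), wild-type wells 1, 3, 4 and 6 at 1071, 1188, 809 and 746 CPM, and wild-type wells 2 and 5 at 1821 and 1918 CPM. The lines did not overlap with or without the pair. The fold change was -1.03 ± 0.22 (SE, edgeR adjusted p = 0.00395) and, without the pair, -0.61 ± 0.13 (adjusted p = 0.00263), so the pair moved this value by more than 1.5 times as well.

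Synpo2l, encoding the PDZ-domain protein CHAP that binds alpha-actinin, separated the lines completely. ChR2 wells held 175 to 232 CPM (median 196), and wild-type wells 1 to 6 held 384, 395, 389.6, 251, 343 and 301 CPM. Wild-type wells 4 and 6 lay nearest to the ChR2 wells. The difference was -0.77 ± 0.14 (SE, edgeR adjusted p = 0.00103) and -0.70 ± 0.13 (adjusted p = 0.00105).

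Pdlim3, encoding the PDZ-LIM adaptor ALP that binds alpha-actinin, also fell. ChR2 wells held 143 to 231 CPM (median 209), wild-type wells 1, 3, 4 and 6 held 315, 356, 375 and 453 CPM, and wells 2 and 5 held 280.5 and 187 CPM. Only wild-type well 5 overlapped the ChR2 wells. The log2 fold change was -0.71 ± 0.19 (SE, edgeR adjusted p = 0.0111) and -0.89 ± 0.14 (adjusted p = 0.000315) without the pair.

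Desmin (Des), the intermediate filament protein of muscle, was the most abundant Z-disc transcript, at 1037 TPM on average over the 10 wells. ChR2 wells were tight, at 1875 to 2207 CPM (median 2028). Wild-type wells 1, 3, 4 and 6 held 1804, 2565, 2664 and 2968 CPM, and wells 2 and 5 held 5717 and 3095 CPM. Wild-type well 1 lay below every ChR2 well and the other 5 above. The difference of -0.63 ± 0.22 (SE, edgeR adjusted p = 0.0482) became -0.29 ± 0.14 (adjusted p = 0.112) without wild-type wells 2 and 5. Over 12 libraries the call held in only 2 of 12 fits that each left out 1 library, those without wild-type well 1 or 4 (adjusted p up to 0.0915 in the others).

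Both remaining Z-disc calls appeared only without wild-type wells 2 and 5. Myoz2, encoding calsarcin-1, which binds alpha-actinin and calcineurin, held 103 to 165 CPM in ChR2 wells (median 135) and 141, 183, 188 and 208 CPM in wild-type wells 1, 3, 4 and 6, with 81.3 and 51.7 CPM in wells 2 and 5. ChR2 wells 2 and 6 overlapped wild-type well 1, and wells 2 and 5 lay below all ChR2 wells. Myoz2 differed by -0.38 ± 0.13 (SE, edgeR adjusted p = 0.0338) over 10 libraries and -0.08 ± 0.26 (adjusted p = 0.851) over 12. The 10-library call was lost without wild-type well 3, 4 or 6 (adjusted p up to 0.0933).

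Nrap, a nebulin-related anchoring protein found where myofibrils are being built, held 122 to 172 CPM in ChR2 wells (median 146) and 162, 212, 175 and 195 CPM in wild-type wells 1, 3, 4 and 6, with 246 and 148 CPM in wells 2 and 5. ChR2 wells 1 and 5 overlapped wild-type well 1. The difference was -0.32 ± 0.11 (SE, edgeR adjusted p = 0.0346) over 10 libraries and -0.35 ± 0.14 (adjusted p = 0.0629) over 12. It was lost without wild-type well 3 or 6 (adjusted p up to 0.0978).

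The other 12 Z-disc genes passed in neither comparison. Alpha-actinin itself showed log2 fold changes of -0.38 ± 0.22 (SE) for Actn2 and -0.29 ± 0.20 for the fast-fibre isoform Actn3. The titin cap telethonin (Tcap) had -0.13 ± 0.53, with wild-type wells 1, 3, 4 and 6 spread from 6.84 to 64.3 CPM. Ldb3 (0.31 ± 0.24) and Pdlim5 (0.47 ± 0.32), both PDZ-LIM adaptors, had positive values, which without wild-type wells 2 and 5 were 0.07 ± 0.20 and 0.12 ± 0.20. Synpo2, the paralog of Synpo2l, stood at 0.03 ± 0.12. The rest lay between -0.51 and 0.15: Myoz1, Myoz3, myotilin (Myot), Xirp2, Smpx and Csrp3, which encodes the muscle LIM protein. Without the pair they lay between -0.56 and -0.05. Smpx then moved from -0.04 ± 0.41 to -0.45 ± 0.27 and Myot from 0.15 ± 0.32 to -0.15 ± 0.24. Per length, Smpx was the second most abundant Z-disc transcript, at 812 TPM over the 10 wells, and Myoz3 was lowest of all 35, at 0.972 TPM.

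**Figure D2:**
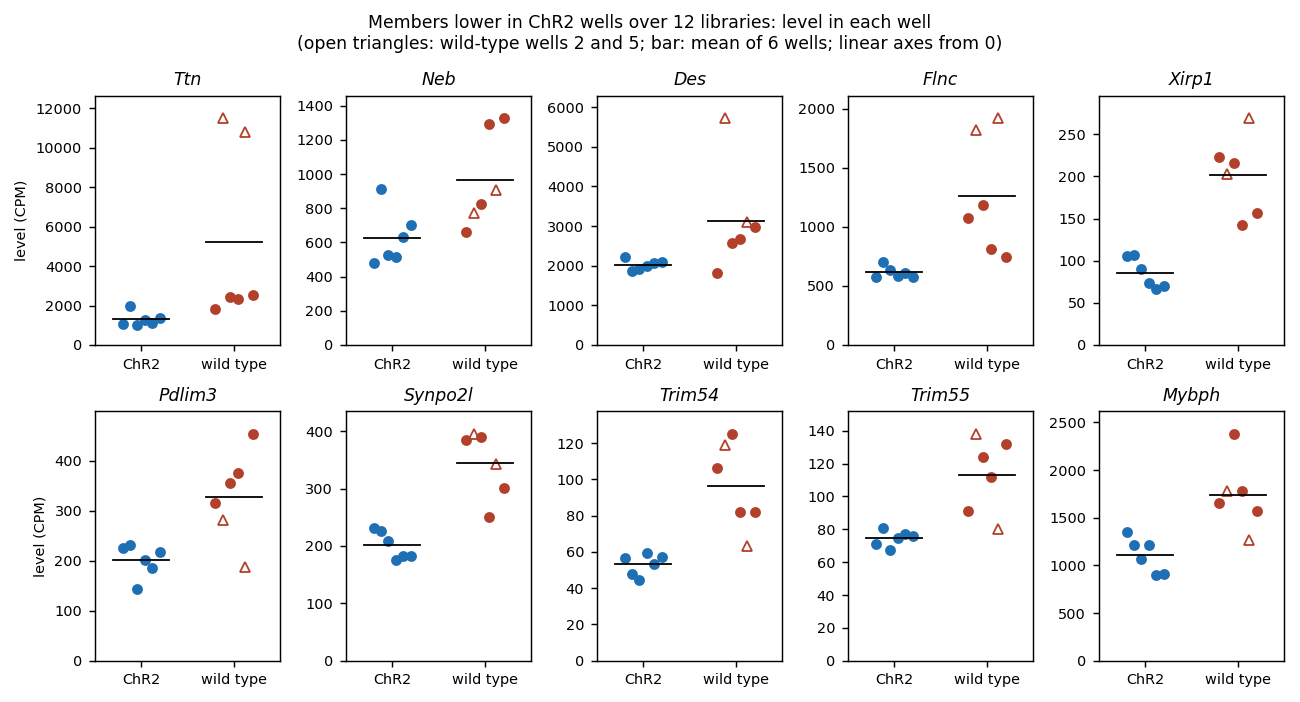
Level in each well (y axis, CPM on TMM-scaled library sizes) of the 10 genes called lower over 12 libraries, ChR2 wells beside wild-type wells, with open triangles for wild-type wells 2 and 5 and bars for the means of 6 wells. Flnc, Xirp1, Synpo2l and Trim54 show no overlap between the lines, while Ttn in wild-type wells 2 and 5 lies at 11495 and 10798 CPM, far above the other wells.

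In the M-band and thick filament group, Trim54 had the largest fold change. It encodes MuRF3, a muscle RING-finger protein that binds microtubules and whose relatives bind titin near the M-band. ChR2 wells held 44.5 to 59.5 CPM (median 55.0), and wild-type wells 1 to 6 held 106, 119, 125, 81.9, 63.2 and 82.1 CPM. The lines did not overlap, with wild-type well 5 nearest. The log2 fold change was -0.84 ± 0.16 (SE, edgeR adjusted p = 0.00154) over 12 libraries. Over 10 it was -0.87 ± 0.13 (adjusted p = 0.00021).

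Its relative Trim55, encoding MuRF2, which associates with titin and microtubules during myofibril assembly, moved in the same direction. ChR2 wells lay close together at 67.3 to 80.7 CPM (median 75.4), wild-type wells 1, 3, 4 and 6 held 90.9, 124, 112 and 132 CPM, and wells 2 and 5 held 138 and 79.9 CPM. Wild-type well 5 overlapped 1 ChR2 well, and the other wild-type wells lay above. The difference was -0.59 ± 0.13 (SE, edgeR adjusted p = 0.00504) and -0.61 ± 0.10 (adjusted p = 0.000628).

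Mybph, encoding myosin-binding protein H of the thick filament, was the most abundant transcript of all 35 per length, at 1116 TPM on average over the 10 wells. ChR2 wells held 899.5 to 1354 CPM (median 1138), wild-type wells 1, 3, 4 and 6 held 1653, 2378, 1782 and 1573 CPM, and wells 2 and 5 held 1779 and 1267 CPM. Wild-type well 5 alone reached into the ChR2 range. The fold change was -0.65 ± 0.17 (SE, edgeR adjusted p = 0.0113) and -0.72 ± 0.15 (adjusted p = 0.00238).

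Among the myomesins, which crosslink thick filaments at the M-band, Myom2 was called only over 10 libraries. ChR2 wells held 735 to 899 CPM (median 854), wild-type wells 1, 3, 4 and 6 held 801, 1051, 1275 and 1228 CPM, and wells 2 and 5 held 1194 and 702 CPM. Wild-type well 1 lay inside the ChR2 range. The difference was -0.37 ± 0.13 (SE, edgeR adjusted p = 0.0407) over 10 libraries and -0.32 ± 0.16 (adjusted p = 0.153) over 12, and it was lost without wild-type well 3, 4 or 6 (adjusted p up to 0.122). Myom3 (-0.52 ± 0.24) and Myom1 (0.35 ± 0.28) were not called. Neither were the slow-type and fast-type myosin-binding proteins C, Mybpc1 (0.26 ± 0.36) and Mybpc2 (-0.37 ± 0.33). Without the pair Myom3 stood at -0.63 ± 0.26, Myom1 at 0.20 ± 0.29, Mybpc1 at 0.01 ± 0.39 and Mybpc2 at -0.24 ± 0.39.

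The 5 genes of the thin filament group, which leaves out Neb, showed 1 call. Lmod2, a leiomodin that promotes actin filament growth at the pointed end, held 158 to 223 CPM in ChR2 wells (median 181), 190.5, 279.7, 215 and 267 CPM in wild-type wells 1, 3, 4 and 6, and 218 and 114 CPM in wells 2 and 5. ChR2 well 1 overlapped wild-type wells 1 and 4. Lmod2 differed by -0.35 ± 0.12 (SE, edgeR adjusted p = 0.0347) over 10 libraries and -0.22 ± 0.18 (adjusted p = 0.382) over 12, and the call was lost without wild-type well 3 or 6 (adjusted p up to 0.101).

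Klhl41, encoding a kelch protein that stabilises nebulin, was the most abundant thin filament transcript, at 371 TPM over the 10 wells. ChR2 wells held 505 to 695 CPM (median 600.5), wild-type wells 1, 3, 4 and 6 held 506, 783, 810.2 and 990.5 CPM, and wells 2 and 5 held 501 and 351 CPM. The lines overlapped, with wild-type wells 3, 4 and 6 above every ChR2 well. The difference was -0.12 ± 0.21 (SE, edgeR adjusted p = 0.715) and -0.34 ± 0.15 (adjusted p = 0.104). The pointed-end cappers Tmod1 (0.24 ± 0.24) and Tmod4 (0.26 ± 0.42) and the leiomodin Lmod3 (0.13 ± 0.26) were not called. Without wild-type wells 2 and 5 their values were 0.02 ± 0.20, 0.20 ± 0.49 and -0.19 ± 0.10, again not called.

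Groups without overlap were counted on levels alone. Over 12 libraries 4 of 35 genes, Flnc, Xirp1, Synpo2l and Trim54, had every ChR2 well below every wild-type well, against 6.52% of all genes tested (15.1% in either direction). Over 10 libraries 7 genes did, with Pdlim3, Trim55 and Mybph added, against 11.2% of all genes (25.0% in either direction). In all 12 fits that each left out 1 library, and in 7 of 7 alternatives over 10 libraries, 8 genes were called: Ttn, Flnc, Xirp1, Pdlim3, Synpo2l, Trim54, Trim55 and Mybph. Over 12 libraries, limma on log2 of TPM plus 1 called only Ttn among these 8 (adjusted p = 0.0371). With 0.1 added instead, or with no filter, it called 0. All 8 log2 fold changes stayed negative in these settings.

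Related genes were compared within each well, as the share of 1 gene in the TPM of its pair, which removes well-wide scaling. Of 12 pairs, 3 differed between the lines over 12 wells. Pdlim3 made up 47.1% ± 4.89 (SD, n = 6) of Pdlim3 plus Pdlim5 in ChR2 wells and 68.0% ± 10.2 (SD, n = 6) in wild-type wells (exact permutation p = 0.00216, two-sided, the smallest possible, adjusted over 12 pairs 0.013). The highest ChR2 well stood at 54.0% and the lowest wild-type well at 57.1%, so the lines did not overlap.

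Synpo2 made up 38.8% ± 1.61 (SD, n = 6) of Synpo2 plus Synpo2l in ChR2 wells and 26.2% ± 6.18 (SD, n = 6) in wild-type wells (exact permutation p = 0.00216, adjusted 0.013). Here ChR2 wells spanned 36.9% to 40.9% and wild-type wells 19.3% to 34.0%. Lmod2 made up 53.7% ± 1.39 of Lmod2 plus Lmod3 against 61.4% ± 8.52 (SD, n = 6 each, exact permutation p = 0.00866, adjusted 0.0346), with wild-type wells 2 and 5 highest at 76.7% and 65.9%. This share passed in only 1 of 12 tests that each left out 1 well, that without wild-type well 1 (adjusted p up to 0.0693), whereas the Pdlim3 and Synpo2 shares passed in 12 of 12.

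Without wild-type wells 2 and 5, 0 of 12 pairs passed after adjustment, and 4 had an unadjusted exact permutation p under 0.05. The Pdlim3 share then differed by -16.0 percentage points and the Synpo2 share by 10.7 points, both with exact permutation p = 0.00952, the smallest that 6 wells against 4 allow, and adjusted p = 0.0571. For both shares the lines still did not overlap. After adjustment over 12 pairs these could not have passed unless further pairs came near that smallest p. The count of 0 therefore cannot decide whether these shares differed. The Lmod2 share differed by -2.73 points (exact permutation p = 0.0381, adjusted 0.143). The other 9 pairs did not pass over 12 wells. Among them were Actn3 in alpha-actinin, at 57.9% ± 2.13 and 56.0% ± 2.82 (SD, n = 6 each), and Trim54 in the MuRF pair, at 57.6% ± 3.12 and 59.5% ± 5.63, where both genes fell.

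**Figure D3:**
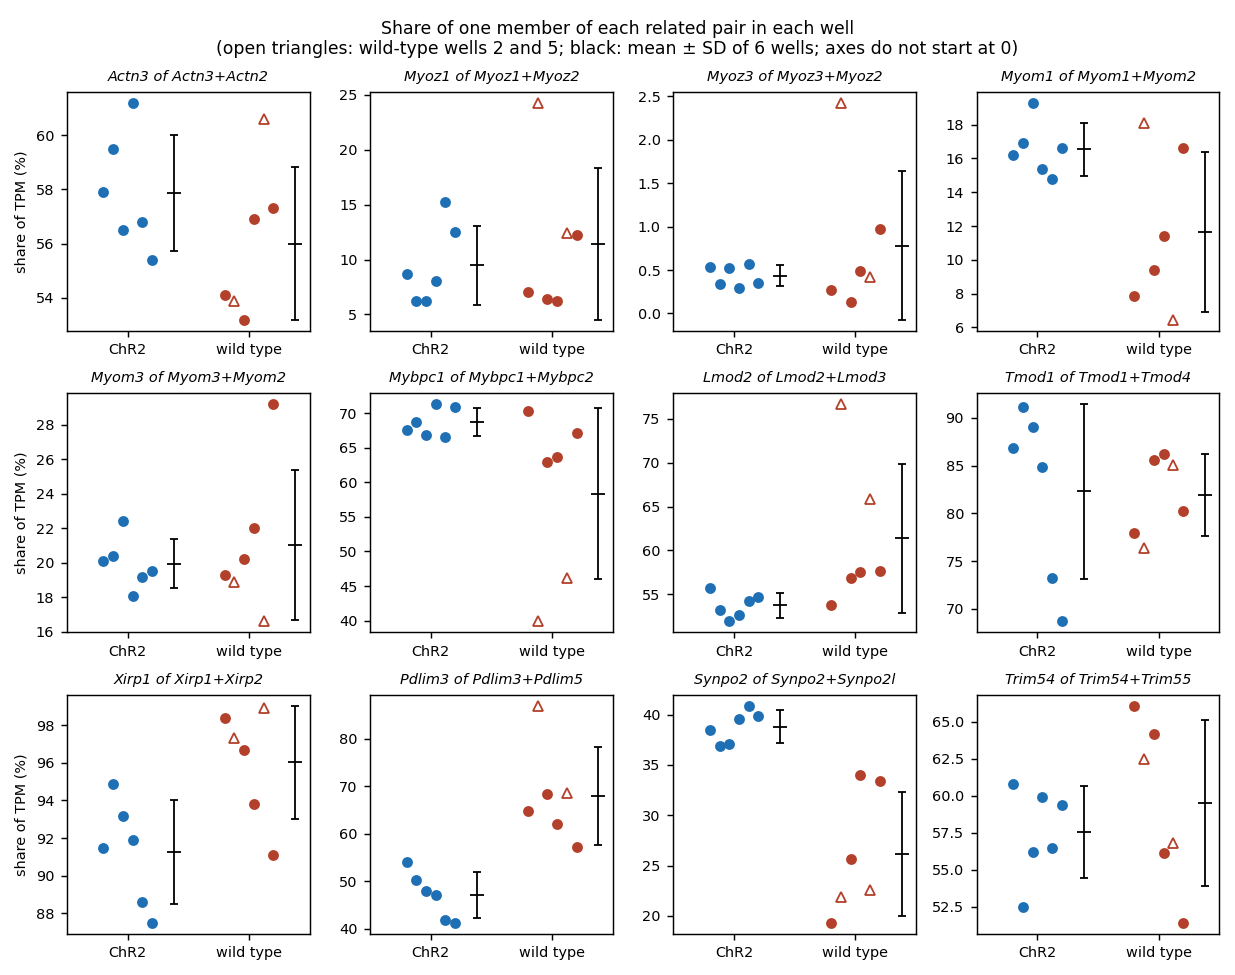
Share of the first gene in the TPM of its pair (axis in percent) in each well of both lines for the 12 pairs of related genes, with open triangles for wild-type wells 2 and 5 and black bars for the mean ± SD of 6 wells (axes do not start at 0). The lines separate for Pdlim3 (47.1% against 68.0% on average) and Synpo2 (38.8% against 26.2%), and overlap for the alpha-actinin and MuRF pairs.

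Wild-type wells varied in a shared direction. Among wild-type wells 1, 3, 4 and 6, 22 of 35 genes were lowest in well 1 and highest in well 6, an order found in 12.8% of all 13168 genes tested, and 24 had wells 4 and 6 both above wells 1 and 3, an order that 24.0% showed. The opposite order, found in 29.7% of all genes, was that of 4 members: Flnc, Xirp1, Synpo2l and Trim54. These are the same 4 genes whose lines did not overlap over 12 libraries, so for them the ChR2 wells lay below wild-type wells that were themselves in the reverse order to most of the set. ChR2 wells 5 and 6 lay above ChR2 wells 1 to 4 for 6 genes, Myoz1, Xirp2, Pdlim5, Smpx, Mybpc1 and Tmod4 (8.61% of all genes). The coefficient of variation between wells ran from 6.09% (Des) to 65.9% (Tmod4) in the ChR2 line and from 11.9% (Nrap) to 90.4% (Myoz3) in the 4 wild-type wells.

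Within wild-type wells 2 and 5 the members did not shift alike. Relative to the mean of the other 4 wild-type wells, Ttn was higher by 2.33 and 2.24 (log2), whereas Smpx was at -1.80 and -2.74 and Pdlim5 at -2.12 and -1.40. Tcap parted the pair, at 1.79 in well 2 and -1.40 in well 5. In all, 16 of 35 members lay below that mean in well 2 and 30 of 35 in well 5. Ttn also has the longest transcript of the set in the GENCODE annotation (107 kb). Over the 35 genes, the Spearman correlation of transcript length with the log2 ratio was 0.03 in well 2 and 0.57 in well 5, as a description across genes that share a library. Median log2 ratios were also taken over tested genes with a mean of at least 5 CPM in the other 4 wild-type wells, classed by longest transcript. For transcripts of 10 kb and over (270 genes) the median was 0.02 in well 2 and 0.52 in well 5. For those under 3 kb (4337 genes) it was -0.08 and -0.20. The Ttn level in this pair lay above both medians of its length class. The part of library preparation in these levels was not tested.

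**Figure D4:**
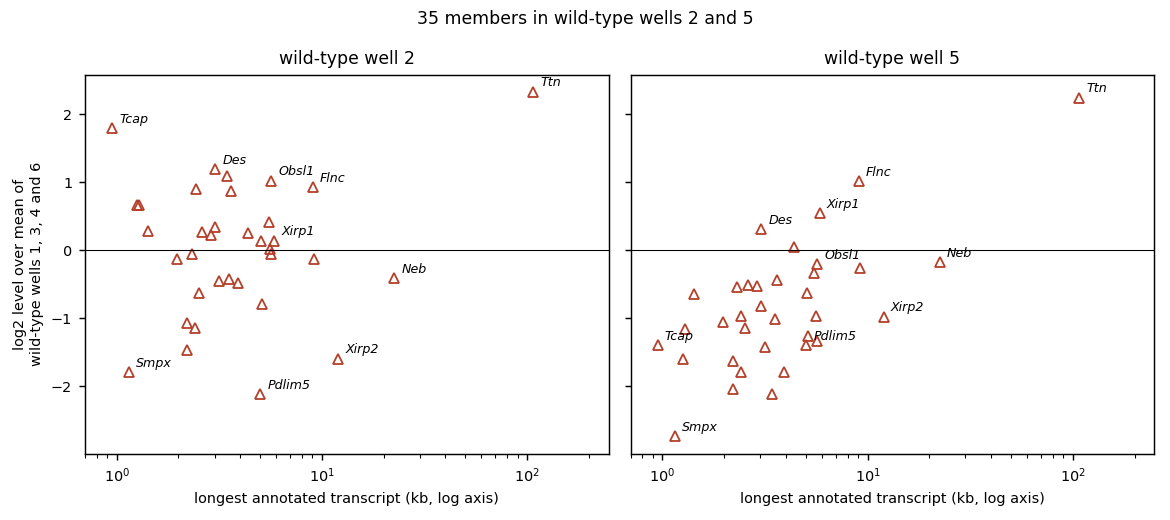
Log2 ratio of wild-type wells 2 and 5 to the mean of wild-type wells 1, 3, 4 and 6 (y axis) against the longest annotated transcript (x axis, kb, log scale) for the 35 genes. Ttn, at 107 kb, lies at 2.33 and 2.24, while Smpx lies at -1.80 and -2.74.

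Genes of the same structures outside the 35 were read from 3 lists. Beside them, 14.0% of all genes tested were higher and 14.1% lower over 12 libraries (18.9% and 16.3% over 10). Of 26 other sarcomere scaffold genes, 24 were tested, 3 were higher and 7 lower, with a median of -0.22 (over 10 libraries 4 higher and 9 lower of 25, median -0.29). The calls with the smallest p were Ankrd23, an ankyrin-repeat protein that binds titin (-0.94 ± 0.15, SE, edgeR adjusted p = 0.000619), Trim63, the atrophy ligase MuRF1 (-1.02 ± 0.17, adjusted p = 0.000919), and the Z-disc protein myopalladin, Mypn (-0.79 ± 0.16, adjusted p = 0.00207). The 3 higher genes, named here after their values were seen, were Ankrd1 (0.35 ± 0.12), Nebl (1.41 ± 0.34) and Tmod3 (0.70 ± 0.18), the ubiquitous tropomodulin.

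Of 12 sarcomere assembly helpers, 7 were lower and 1 higher, with a median of -0.56 (8 and 1 over 10 libraries, median -0.48). Klhl40, which stabilises nebulin and leiomodin 3 (-1.05 ± 0.14, SE, edgeR adjusted p = 0.000176), Klhl31 (-0.90 ± 0.16, adjusted p = 0.00135) and the small heat shock protein Hspb7 (-0.68 ± 0.12, adjusted p = 0.00144) had the smallest p. Nmrk2, the single higher gene and likewise named after its value was seen, stood at 1.34 ± 0.33.

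The calls among 15 non-muscle counterparts of the members were in the other direction. Of these, 5 were higher and 0 lower, with a median of 0.32 (0 lower also at an unadjusted p under 0.05). Over 10 libraries 11 were higher and 0 lower, with a median of 0.45. Among all genes tested, 14.0% were higher over 12 libraries and 18.9% over 10. Vimentin (Vim), the intermediate filament protein of non-muscle cells and myoblasts, rose by 1.01 ± 0.14 (SE, edgeR adjusted p = 0.000295) where desmin fell over 12 libraries. Csrp2, a relative of Csrp3, rose by 1.15 ± 0.23 (adjusted p = 0.00248). Zyx (0.51 ± 0.13) and Lasp1 (0.59 ± 0.16), both proteins of actin-rich adhesions, were also higher and are named after their values were seen. No test compared the lists with each other.

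**Figure D5:**
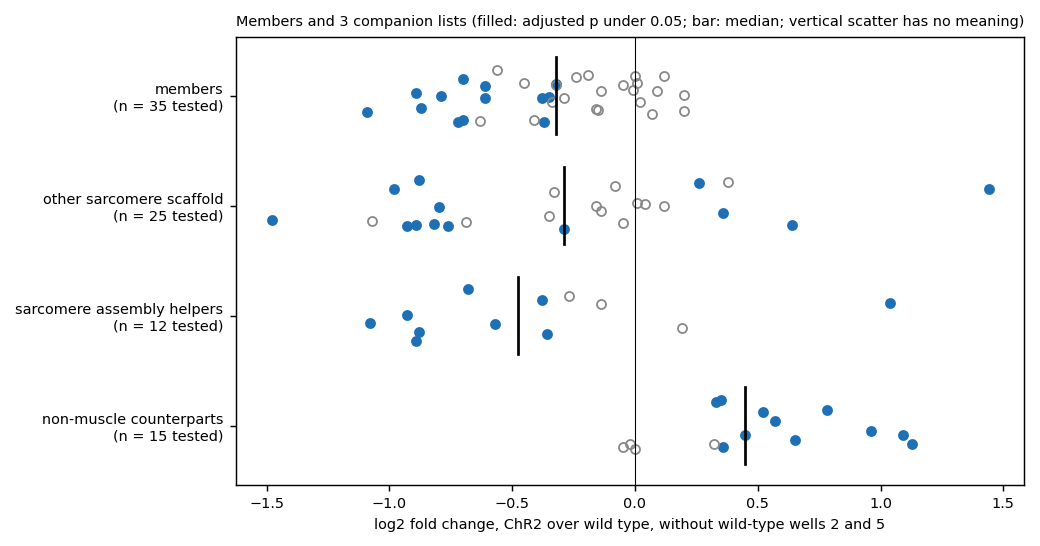
Log2 fold change (x axis, ChR2 over wild type, over the 10 libraries without wild-type wells 2 and 5) of each tested gene in the set of 35 and the 3 further lists, filled where adjusted p was under 0.05, with bars for the medians. The 13 called members lie below 0, and the 11 called non-muscle counterparts above 0.

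Markers of the culture were read in the same fits, where 14.0% of all genes were higher and 14.1% lower over 12 libraries (18.9% and 16.3% over 10). Of 8 skeletal myotube markers 0 were higher by edgeR (0 at an unadjusted p under 0.05) and 1, Myog, was lower over 12 libraries. Over 10 libraries 0 were higher and 3 lower, Myog (-0.67 ± 0.13, SE), Mymk (-0.62 ± 0.12) and Chrna1 (-0.33 ± 0.10). Their summed level was 11233 to 14418 CPM in ChR2 wells and 9661 to 15915 CPM in wild-type wells 1, 3, 4 and 6 (5589 at the lowest over all 6). All 4 proliferation markers (Mki67, Top2a, Ccnb1, Ube2c) were higher in the ChR2 line in both comparisons, with sums of 419 to 606 CPM against 49.8 to 318 CPM, without overlap. Of 4 myoblast and satellite cell markers Cdh15 was lower in both comparisons, and Myf5 was higher over 12 libraries but not over 10 (0.60 ± 0.23, SE, edgeR adjusted p = 0.0663). Their sums were 416 to 443 against 440.5 to 633 CPM. Their part in the lower scaffold transcripts was not tested.

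Markers of other cell types were read alongside. Of 6 fibroblast markers 5 were tested, and Pdgfrb and Col3a1 were higher in both comparisons, with sums of 2824 to 3453 against 761 to 3228 CPM. In ChR2 wells Col3a1 averaged 2442 CPM, Col1a1 508 CPM and Dcn 83.3 CPM, and Lum reached at most 0.549 CPM. Of 4 smooth muscle markers 3 were tested, and Smtn and Acta2 were higher in both comparisons, with sums of 1090.2 to 1341 against 463 to 867 CPM, while Myh11 reached at most 0.714 CPM. Of 5 cardiomyocyte markers, Tnni3 and Myh6 were tested and higher over 12 libraries, and Tnni3 also over 10, where Myh6 was not called (1.16 ± 0.47, SE, edgeR adjusted p = 0.0837). Their list summed to 48.8 to 107 against 6.78 to 59.5 CPM, with Nppa at 0 in all 12 wells, Myl7 at most 0.276 CPM and Ryr2 at most 1.31 CPM, in wild-type well 2. Endothelial and adipocyte markers never summed to more than 0.377 and 0.415 CPM in a well. The part of these markers in the result was not tested either.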

How the data were processed

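Libraries from 6 ChR2::tdTomato and 6 wild-type wells were read as pairs of 50 bases. RNA was poly(A)-selected, except that low-input samples, not named, were ribodepleted, per the labels' protocols. The authors deposited estimated counts per gene and TPM of 56941 genes in all 12 libraries. Salmon, STAR, BWA 0.7.12-r1039 and bedtools 2.25.0 and the builds mm10, hg19 and GRCm39 are named in the submitters' processing notes. Their roles are not given in the sources used here. The number of unused per-sample columns was 0.

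Estimated counts were rounded, filtered by edgeR's filterByExpr (minimum count 10), scaled by TMM and tested by edgeR 4.0.16's quasi-likelihood test with robust dispersion in R 4.3.3, with the line as the only term and Benjamini-Hochberg adjustment over all genes tested, and the fit was repeated without wild-type wells 2 and 5. The fit was tested on simulated data. Levels were expressed as CPM of the TMM-scaled library. TPM was used for shares within pairs of genes (each at a mean of 0.5 TPM or more), compared by exact permutation tests (scipy 1.17.1), and to rank levels over the 10 wells other than wild-type wells 2 and 5, where the Rn7s RNAs took 74.7% and 52.1% of TPM. The duplicate check (a chi-square statistic, from 10 counts per gene) gave at least 5.09 per degree of freedom, so each library counted once.

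For members called in either fit and the most abundant member of each structure, ChR2 wells were given by range and median and wild-type wells singly. Fold changes and adjusted p were given for these members, and other members by fold change or range. From each further list up to 3 called genes with the smallest p were named. A single result among the further lists is not reported here and remains in the counts. The members, the further lists and the markers were chosen with earlier results of these data known. Alternatives were DESeq2 1.42.0 (size factors and Wald test), upper-quartile scaling, limma 3.58.1 (voom with sample weights, and log2 of TPM plus 1 or 0.1), other filters, leaving out each library, and blocking on the replicate number. A fit on TPM rescaled without the Rn7s RNAs was added after the data were seen. Promoters and their coordinates came from the RefSeq table of GRCm38.p6, matched by symbol, and figures were drawn with matplotlib 3.10.9.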

Additional observations from a re-analysis of the deposited data

Results flagged for a closer look

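Among 70 groups of levels (35 genes in each line), 4 held a well whose gap to its nearest neighbour was above 0.625 of the group's range, where chance gives about 1 in 20 groups. Ttn in ChR2 well 2 stood at 2002 CPM, with the other ChR2 wells at 1033 to 1370.5 CPM. Obsl1 in ChR2 well 4 stood at 248 CPM, with the others at 355 to 378 CPM, and Myom3 in the same well at 143 CPM, with the others at 199 to 214 CPM. The library of ChR2 well 4 also held 0.746% of counts from mitochondrially encoded genes, against 1.92% to 2.73% in the other ChR2 wells. Its part in these levels was not tested. Des in wild-type well 2 stood at 5717 CPM, with the others at 1804 to 3095 CPM.

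Among 24 groups of shares, 2 held such a well, both of them wild-type well 2. Myoz1 made up 24.3% of Myoz1 plus Myoz2 there and 6.19% to 12.4% in the other wild-type wells, on 22 and 62 counts. Myoz3 made up 2.43% of Myoz3 plus Myoz2 and 0.129% to 0.968% elsewhere, on 5 counts of Myoz3.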

How the results depend on the processing

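Over DESeq2 size factors, upper-quartile scaling, the DESeq2 Wald test, limma voom and both other count filters, between 8 and 12 members were lower and 0 higher. Leaving out 1 library gave 8 to 12 members called and 2822 to 4115 genes called (main values 10 and 3701). Over the 10 libraries only wild-type wells were left out, 1 at a time, and no ChR2 well. This gave 8 to 18 members (main value 13), with 8 without wild-type well 6 and 18 without wild-type well 1. Limma on TPM called 620 genes and 1 member (log2 of TPM plus 1), 271 and 0 (plus 0.1) and 425 and 0 (no filter), and 4 rather than 23 genes of the further lists. Under these 3 settings the median of all genes was 0.35, 0.43 and 0.08, and the members' median 0.27, 0.28 and 0.27. With the Rn7s RNAs removed from TPM first, 2054 genes and 9 members were called and the all-gene median was -0.06. In the same 3 settings the log2 fold changes turned positive for Neb (0.06, 0.07, 0.06), Myoz2 (0.57, 0.59, 0.57), Nrap (0.08, 0.09, 0.08), Myom2 (0.17, 0.17, 0.17) and Lmod2 (0.27, 0.28, 0.27). Myoz2 was also at 0.08 with the Rn7s RNAs removed, and between -0.26 and 0.05 when 1 library was left out (0.01 without wild-type well 4, 0.05 without wild-type well 6). Of 12 pair shares, 3 differed in the main test and 2 to 4 when 1 well was left out. The Pdlim3 and Synpo2 shares passed in 12 of 12 such tests and the Lmod2 share in 1 of 12, without wild-type well 1, where Mybpc1 passed as well. Xirp1 passed without wild-type well 6. As shares of CPM 6 pairs differed, and without wild-type wells 2 and 5, 0, where the smallest possible p limits the adjusted test. Equal replicate numbers did not pair the wells, with correlations of their deviations from -0.16 to 0.12. A replicate block gave 2641 genes and 8 members, and Myoz2 was at 0.05. The cause of these shifts was not tested. Depth was lowest in wild-type wells 2 and 5, which limits what can be said of genes such as Myoz3, with 5 and 2 counts there.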
